A study of Mus musculus with 12 samples.

Results

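The genes described here were 9 markers of mesangial cells and of contractile cells in the kidney glomerulus, chosen by symbol from the 14096 genes listed for these libraries. All 9 were listed, each once. They fall into 5 genes of mesangial identity (Pdgfrb, Itga8, Gata3, Des and Serpine2) and 4 genes of the contractile machinery (Acta2, Tagln, Myl9 and Cald1).

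Glomerular poly-A RNA was sequenced from 12 male mice that lacked endothelial nitric oxide synthase (eNOS-/-) in every cell, on a C57BL/6J background. All groups, controls included, carried the deletion. At 8 weeks of age, 5 daily injections of streptozotocin (STZ, 50 mg/kg each) induced diabetes, and the nondiabetic mice received citrate buffer in its place. From 10 weeks after induction, mice were gavaged with arctigenin (ATG), a plant lignan, at 40 mg/kg/day in 5% DMSO or with 5% DMSO alone (vehicle) for 8 weeks, and were killed 18 weeks after induction. There were 4 groups of 3 mice: nondiabetic and diabetic, each given vehicle or ATG. The RNA was taken from isolated glomeruli by the study's methods, which name no sort for these libraries, although the labels also describe a digestion to single cells and a sort on a fluorescent protein.

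Mesangial cells are the pericyte-like cells that hold the capillary loops of the glomerulus together. They arise from cells that carry the platelet-derived growth factor receptor β and are recruited by its ligand from endothelial cells. They contract in response to angiotensin II and endothelin, and in many kidney diseases they divide, lay down matrix and take on more smooth muscle proteins. The smooth muscle genes are also expressed by the arterioles that enter and leave the glomerulus.

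Each deposited value is a log2 level per gene. On the linear scale, 83.4 to 84.1% of low values per library were whole multiples of 1 step, as reads scaled by 1 factor per library would be, and the rest were not, so depths and read numbers given here are estimates. The depth estimated from these steps was 23.6 to 29.8 M reads, shallowest in the unnumbered ATG-treated mouse described next. The 9 genes held an estimated 1008 to 16174 reads per mouse. The 12 libraries were not duplicates of each other. In the 2 nondiabetic groups 1 mouse each had no number in its label, and these are called the unnumbered mice here. The unnumbered ATG-treated mouse had the lowest level of all 12 mice for 8 of the 9 genes, and the unnumbered vehicle-treated mouse had the highest for 4 of them, so the results that rest on these mice are also given without them. Genes of podocytes were plentiful in all groups (Nphs1, the slit diaphragm protein nephrin, at a mean log2 level of 15.89 ± 0.049 (SD, n = 3) in nondiabetic vehicle-treated mice).

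Markers of kidney tubule, a tissue outside the glomerulus, differed between groups. The mean log2 level of a list of 20 tubule genes lay between 12.84 and 13.27 in the nondiabetic vehicle-treated mice. It lay between 13.34 and 13.93 in the nondiabetic ATG-treated mice. Diabetic mice had lower means, between 11.06 and 12.39 with vehicle and between 11.78 and 12.22 with ATG. Since each library is scaled to a similar total, a gene's value falls when RNA of other cells takes up more of the library. In such bulk samples, fewer cells of a type and less RNA per cell cannot be told apart.

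Per kilobase of transcript, Myl9 had the highest level of the 9 genes and Gata3 the lowest. The mean log2 level per kilobase over the 4 groups was 12.91 for Myl9, 12.28 for Serpine2, 11.47 for Cald1, 11.31 for Acta2 and 11.31 for Tagln. The remaining mesangial genes lay lower, at 10.18 for Itga8, 10.05 for Des, 9.24 for Pdgfrb and 9.01 for Gata3. Cald1, Acta2 and Tagln did not differ beyond their spread in nondiabetic vehicle-treated mice, at 11.67 ± 0.076, 11.70 ± 0.49 and 11.62 ± 0.40 per kilobase (SD, n = 3). Itga8 and Des, and likewise Pdgfrb and Gata3, lay apart by about as much as mice of 1 group did.

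The question behind the 4 groups is what diabetes does to the glomerulus and whether ATG changes it, in the presence and in the absence of diabetes. The 9 genes separated 1 group from the other 3: in nondiabetic mice given ATG, 8 of them had lower levels in every mouse than in any of the 9 other mice. Of all listed genes, 13.5% did so. Diabetes with vehicle moved Serpine2 alone of the 9 past the test, a share near that of all genes. ATG in diabetic mice moved no gene past the test, among the 9 or elsewhere, which does not show that no gene changed. The plot of levels by mouse shows all values.

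**Figure D1:**
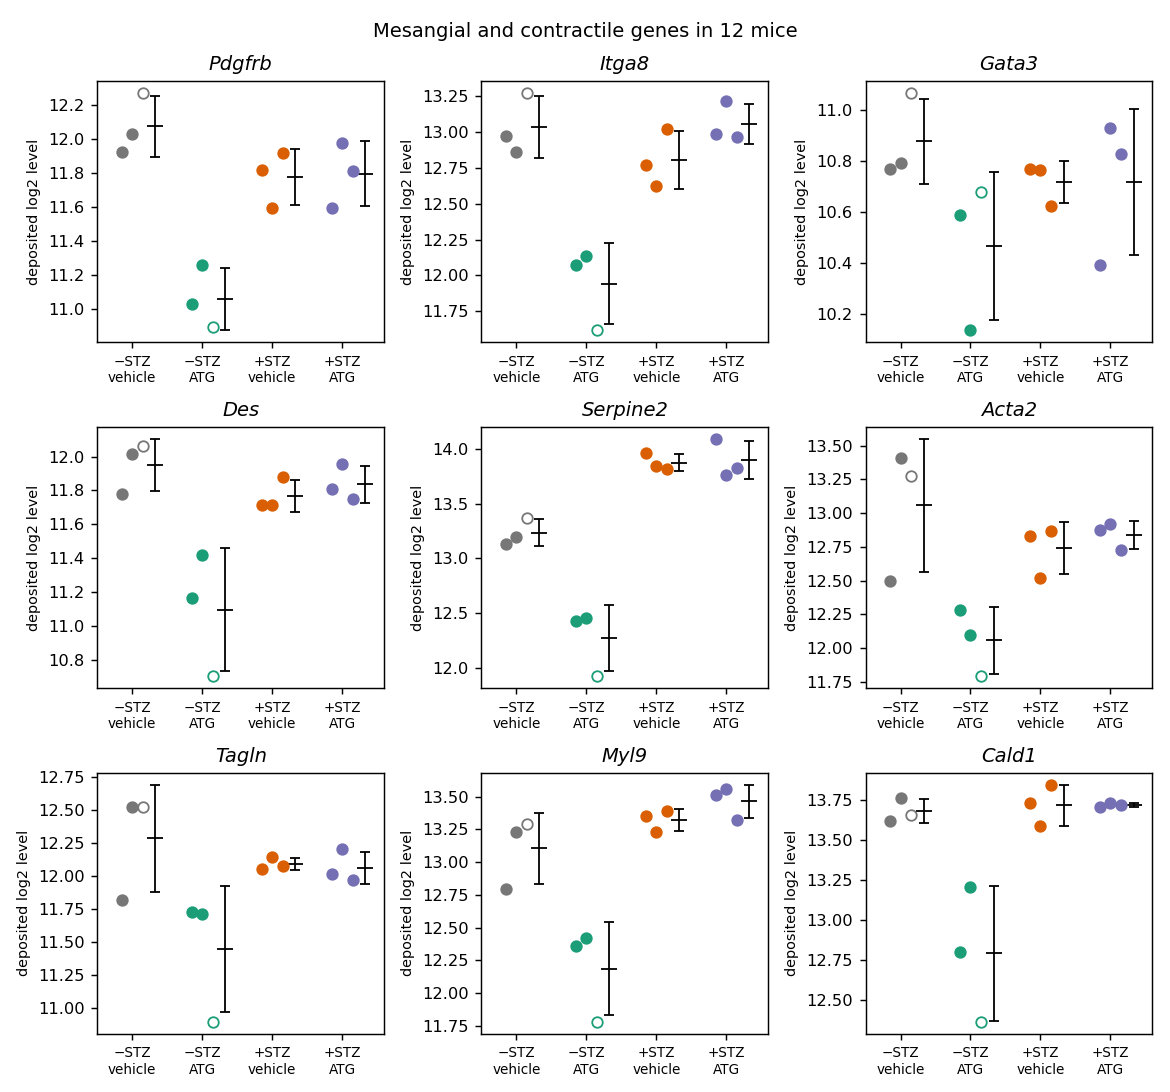
Deposited log2 level of each of the 9 genes in each of 12 mice, by group (−STZ nondiabetic, +STZ diabetic). Points are mice, hollow points the unnumbered mice, and bars the mean ± SD of 3 mice; the nondiabetic ATG-treated mice lie lowest for every gene but Gata3, and all 6 diabetic mice lie above the 6 nondiabetic mice for Serpine2.

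Pdgfrb encodes the receptor for platelet-derived growth factor B and D, needed to form the mesangium, and lies at chr18:61045149-61085067 on the plus strand of the mm10 build. Its log2 level was 11.92, 12.03 and 12.27 in nondiabetic mice given vehicle, 11.03, 11.26 and 10.89 in nondiabetic mice given ATG, 11.82, 11.60 and 11.92 in diabetic mice given vehicle and 11.60, 11.98 and 11.81 in diabetic mice given ATG. The nondiabetic ATG-treated mice lay below all other mice, and the other 3 groups lay close together. ATG lowered Pdgfrb 2.02-fold in nondiabetic mice (log2 fold change −1.01 ± 0.13 (SE), limma adjusted p = 0.00548). In vehicle-treated mice, diabetes gave −0.30 ± 0.13, which did not pass after adjustment (adjusted p = 0.138).

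Itga8 encodes the integrin α8 chain, a mesangial receptor for fibronectin and nephronectin, and lies at chr2:12106659-12301920 on the minus strand. In single mice its log2 level was 12.97, 12.86 and 13.27 in nondiabetic vehicle-treated mice, 12.07, 12.14 and 11.62 in nondiabetic ATG-treated mice, 12.77, 12.62 and 13.02 in diabetic vehicle-treated mice and 12.99, 13.21 and 12.97 in diabetic ATG-treated mice. Again the nondiabetic ATG-treated mice lay below all others, while the other groups overlapped. The fall with ATG in nondiabetic mice was 2.13-fold (log2 fold change −1.09 ± 0.16, adjusted p = 0.00818). In ATG-treated mice, diabetic mice had 2.16-fold higher Itga8 than nondiabetic mice (1.11 ± 0.16, adjusted p = 0.000532). An antisense gene shares 372 bases of its exons, and whether counting used the strand is not given in the sources used here.

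Gata3 encodes a zinc finger transcription factor expressed by mesangial cells and lies at chr2:9857077-9878600 on the minus strand. Its log2 level was 10.77, 10.79 and 11.07 in nondiabetic vehicle-treated mice, 10.59, 10.14 and 10.68 in nondiabetic ATG-treated mice, 10.77, 10.76 and 10.62 in diabetic vehicle-treated mice and 10.39, 10.93 and 10.83 in diabetic ATG-treated mice. The nondiabetic ATG-treated mice lay below their vehicle controls, and 2 of the 3 lay inside the range of the diabetic mice while mouse 2 was the lowest of all 12. Its exons share 77 bases with a protein-coding gene on the same strand and 155 with an antisense gene. Gata3 passed no test. Its largest difference was that between ATG and vehicle in nondiabetic mice, −0.41 ± 0.16 (adjusted p = 0.129). That difference ran from −0.51 to −0.24 over the fits that left out 1 mouse.

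Des encodes desmin, the intermediate filament of muscle that mesangial cells and injured podocytes also make, at chr1:75360291-75368579 on the plus strand. The log2 level of Des was 11.78, 12.02 and 12.06 in nondiabetic vehicle-treated mice, 11.17, 11.42 and 10.70 in nondiabetic ATG-treated mice, 11.71, 11.71 and 11.88 in diabetic vehicle-treated mice and 11.81, 11.96 and 11.75 in diabetic ATG-treated mice. Only the nondiabetic ATG-treated mice stood apart. An antisense gene shares 220 bases of its exons. Their Des level was 1.81-fold lower than in vehicle controls (log2 fold change −0.86 ± 0.15, adjusted p = 0.0143).

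Serpine2 encodes protease nexin-1, a secreted inhibitor of thrombin and plasminogen activators, at chr1:79794320-79858665 on the minus strand. Its log2 level was 13.14, 13.20 and 13.37 in nondiabetic vehicle-treated mice, 12.43, 12.46 and 11.93 in nondiabetic ATG-treated mice, 13.96, 13.84 and 13.82 in diabetic vehicle-treated mice and 14.09, 13.76 and 13.83 in diabetic ATG-treated mice. All 6 diabetic mice lay above all 6 nondiabetic mice, which no other of the 9 genes did. Of all listed genes, 13.3% were separated in this way and direction. Diabetes raised Serpine2 1.55-fold with vehicle (log2 fold change 0.64 ± 0.14, adjusted p = 0.0138) and 3.07-fold with ATG (1.62 ± 0.14, adjusted p = 6.81e-05). Averaged over both treatments the rise was 2.19-fold (1.13 ± 0.10, adjusted p = 3.93e-05). The larger rise with ATG goes with a lower nondiabetic level, since ATG lowered Serpine2 1.95-fold in nondiabetic mice (−0.96 ± 0.14, adjusted p = 0.00825) and left diabetic mice at 13.89 ± 0.17 against 13.87 ± 0.077 with vehicle (log2 level, SD, n = 3). The difference between the rises with ATG and with vehicle did not pass the interaction test (0.98 ± 0.20, adjusted p = 0.0606).

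Among the contractile genes, Acta2 encodes smooth muscle α-actin, at chr19:34240335-34255373 on the minus strand. The log2 level of Acta2 was 12.49, 13.41 and 13.28 in nondiabetic vehicle-treated mice, 12.28, 12.09 and 11.79 in nondiabetic ATG-treated mice, 12.83, 12.52 and 12.87 in diabetic vehicle-treated mice and 12.87, 12.92 and 12.72 in diabetic ATG-treated mice. The vehicle-treated nondiabetic mice were the most scattered, 1 of them lying below all 6 diabetic mice. ATG lowered Acta2 2.00-fold in nondiabetic mice (it fell by 1.00 ± 0.21 on the log2 scale, adjusted p = 0.0272). In vehicle-treated mice its mean was lower with diabetes, a difference that was not called (−0.32 ± 0.21, 95% interval from −0.79 to 0.15, adjusted p = 0.309). Per kilobase, the related muscle actins had far lower mean log2 levels in nondiabetic vehicle-treated mice, 7.48 for Actc1, 7.05 for Actg2 and 5.48 for Acta1 against 11.70 for Acta2. How reads shared between these similar genes were assigned is not given in the sources used here.

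Tagln encodes transgelin (SM22α), an actin-bundling protein of smooth muscle, at chr9:45929627-45936058 on the minus strand. Its log2 level was 11.82, 12.52 and 12.52 in nondiabetic vehicle-treated mice, 11.72, 11.72 and 10.90 in nondiabetic ATG-treated mice, 12.05, 12.14 and 12.08 in diabetic vehicle-treated mice and 12.02, 12.20 and 11.97 in diabetic ATG-treated mice. The vehicle-treated nondiabetic mouse with the lowest Tagln was also the lowest of its group for Acta2, Myl9 and Cald1. ATG in nondiabetic mice gave −0.84 ± 0.23, just short of the threshold (adjusted p = 0.0553). Of its annotated exon bases, 1241 of 1988 are shared with an antisense gene and 108 with the protein-coding gene Pcsk7 on the other strand. Reads in these bases cannot be told apart from reads of those genes if strand was not used. Its relative Tagln2, which many cell types express, was called higher in diabetic mice over both treatments (log2 fold change 0.73 ± 0.095, adjusted p = 0.000188).

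Myl9 encodes the regulatory light chain of smooth muscle myosin, at chr2:156775463-156781657 on the plus strand. The mice had log2 levels of 12.79, 13.23 and 13.29 in nondiabetic vehicle-treated mice, 12.36, 12.42 and 11.78 in nondiabetic ATG-treated mice, 13.35, 13.23 and 13.39 in diabetic vehicle-treated mice and 13.52, 13.56 and 13.32 in diabetic ATG-treated mice. The diabetic ATG-treated mice lay above every nondiabetic mouse, and the diabetic vehicle-treated mice overlapped their own controls. Diabetes gave a log2 fold change of 0.22 ± 0.17 with vehicle, which was not called (adjusted p = 0.392), and 1.28 ± 0.17 with ATG (adjusted p = 0.000413), an average of 0.75 ± 0.12 (adjusted p = 0.000612). ATG lowered it 1.89-fold in nondiabetic mice (−0.92 ± 0.17, adjusted p = 0.0168).

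Cald1 encodes caldesmon, which binds actin and myosin and restrains contraction, at chr6:34709443-34775469 on the plus strand. For Cald1 the log2 level was 13.62, 13.76 and 13.66 in nondiabetic vehicle-treated mice, 12.80, 13.21 and 12.36 in nondiabetic ATG-treated mice, 13.73, 13.59 and 13.84 in diabetic vehicle-treated mice and 13.71, 13.73 and 13.72 in diabetic ATG-treated mice. The 9 mice outside the nondiabetic ATG group lay close together, between 13.59 and 13.84. In that group Cald1 was 1.85-fold lower than with vehicle (log2 fold change −0.89 ± 0.17, adjusted p = 0.0165).

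Contractile genes are classic targets of serum response factor, which binds the A- and T-rich CArG box, so the promoters of the 9 genes were searched for it on both strands. Windows of 250 bases before to 50 after the transcription start, from RefSeq on GRCm38.p6, were at hand for 7 of the 9 genes, and Tagln and Pdgfrb were not searched. A CArG box was found in the window of Myl9 alone among the 7, and 1.63% of all 32851 windows held one. A looser form with 1 C or G inside the core, searched after the strict result was seen, was also found in Acta2, and 9.98% of all windows held a box of either the strict or the looser form. The 4 matches are shown 5′ to 3′ on the gene's strand with 10 bases on each side, because they lie in 2 of the 3 contractile genes searched, and capitals mark the box.
Acta2, chr19:34255438-34255467, minus strand, looser form: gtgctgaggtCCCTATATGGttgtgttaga
Acta2, chr19:34255388-34255417, minus strand, looser form: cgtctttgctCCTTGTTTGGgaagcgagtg
Myl9, chr2:156775293-156775322, plus strand, strict form: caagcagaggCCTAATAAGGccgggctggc
Myl9, chr2:156775355-156775384, plus strand, looser form: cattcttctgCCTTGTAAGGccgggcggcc
The boxes ended 74 and 24 bases before the start of Acta2 and 151 and 89 bases before that of Myl9. A match is a description of the letters, not of binding, and the genes without a match may hold boxes outside these windows. Of the 15 genes with a window in a list of contractile apparatus genes, 3 held a strict box (Cnn2, Srf and Vcl).

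In nondiabetic mice given ATG against vehicle, 7 of the 9 genes were called lower, at an adjusted p under 0.05 over all genes (the rule for a call throughout). Of all listed genes, 4.51% were called lower and 0.709% higher. The 7 genes were Pdgfrb, Itga8, Des, Serpine2, Acta2, Myl9 and Cald1. The median log2 fold change of the 9 genes was −0.92, and that of all genes −0.039. In each of the 9 genes all 3 ATG-treated mice lay below all 3 vehicle-treated mice, as they did for 20.0% of all genes.

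Other mesangial genes, on a wider list of 17 listed mesangial and pericyte genes, moved the same way: 15 were called lower and none higher, with a median log2 fold change of −0.78. The lowest p-values belonged to Ebf1, a pericyte transcription factor (−0.98 ± 0.15, adjusted p = 0.00828), Fhl2, a LIM-domain coactivator (−0.97 ± 0.15, adjusted p = 0.00828), Notch3, the Notch receptor of mural cells (−0.94 ± 0.14, adjusted p = 0.00835), and Gucy1b3, a subunit of the nitric oxide receptor guanylyl cyclase (−0.93 ± 0.15, adjusted p = 0.00884). The genes not called were Pdgfra (−0.63 ± 0.17, adjusted p = 0.0510) and Abcc9 (−0.36 ± 0.11, adjusted p = 0.0791). Of 21 genes of the contractile apparatus, 7 were called lower and none higher, with the lowest p for Vcl, which encodes the adhesion protein vinculin (−0.79 ± 0.083, adjusted p = 0.00230), Myocd, the myocardin coactivator of serum response factor (−0.92 ± 0.16, adjusted p = 0.0125), Actn1, an actin cross-linker (−0.54 ± 0.11, adjusted p = 0.0234), and Smtn, encoding smoothelin (−0.49 ± 0.10, adjusted p = 0.0263).

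Ligands, receptors and binding partners of the 9 gene products also fell in part, 4 of 12 being called lower. They were Lrp1, a receptor that takes up Serpine2 complexes (−1.10 ± 0.095, adjusted p = 0.00125), Pdgfa (−0.47 ± 0.11, adjusted p = 0.0393), Pdgfb, the endothelial ligand of the Pdgfrb product (−0.72 ± 0.17, adjusted p = 0.0417), and Tnc, encoding tenascin C (−0.96 ± 0.24, adjusted p = 0.0466). Of 6 arteriolar and renin-cell genes, only Akr1b7 was called (−0.95 ± 0.24, adjusted p = 0.0443). Myh11, the myosin heavy chain of arteriolar smooth muscle and also on the contractile apparatus list, was not called (−0.97 ± 0.26, adjusted p = 0.0554). Its level averaged 11.70 ± 0.22 with ATG and 12.67 ± 0.56 with vehicle (log2 level, SD, n = 3).

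The fall was not particular to mesangial genes. Of 12 endothelial genes 7 were called lower, and the mean log2 level of the list was 12.94 (12.57 to 13.31) with ATG and 13.61 (13.53 to 13.68) with vehicle. None of 12 podocyte genes was called, although their median log2 fold change was −0.58, since the mice were scattered: the list mean was 13.91 and 14.62 in the numbered ATG-treated mice and 13.47 in the unnumbered mouse, against 14.50 to 14.62 with vehicle. The ATG-treated mouse with a podocyte mean of 14.62 had an endothelial mean of 13.31, below all controls, and a tubule mean of 13.34, above them, and all 9 genes were below every vehicle-treated mouse. The part of these shifts in the values of the 9 genes was not tested in single mice. The tubule list was not called in any of its 20 genes, with a median log2 fold change of 0.58. With the tubule mean as a covariate, 3 genes stayed called (Pdgfrb, Itga8 and Serpine2), where 95 of all 14096 genes were, and all 9 kept a negative sign, between −0.98 and −0.54. Relative to the mean of the podocyte and endothelial lists, 8 of 9 had a negative sign, Itga8 alone was called (−0.47 ± 0.18, adjusted p = 0.0478), and Gata3 had the other sign (0.21 ± 0.30). On that scale 5969 of all 14096 genes were called in 1 direction or the other.

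**Figure D2:**
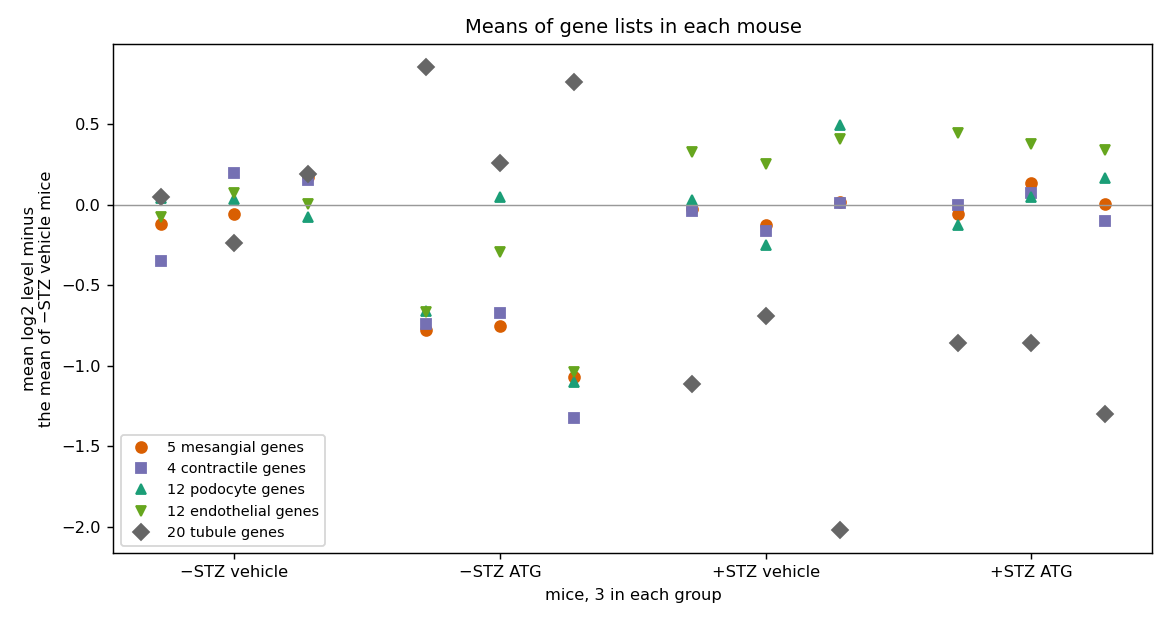
Mean log2 level of the 5 mesangial genes, the 4 contractile genes and lists of 12 podocyte, 12 endothelial and 20 tubule genes in each of 12 mice, each minus the list's mean in the 3 nondiabetic (−STZ) vehicle-treated mice. In nondiabetic ATG-treated mice the mesangial, contractile and endothelial means are below 0 and the tubule means above 0, and 1 of the 3 has a podocyte mean near 0; in diabetic (+STZ) mice the tubule means are below 0.

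The calls in nondiabetic mice rested on few animals. Without both unnumbered mice all 9 genes stayed lower, with log2 fold changes from −0.83 to −0.42, but none of the 9 and only 8 of all genes were called, and 0 of the 17 wider mesangial genes (a count added after seeing the data). Leaving out a vehicle-treated mouse, either number 2 or the unnumbered mouse, left 3 of the 9 called (Pdgfrb, Itga8 and Serpine2). With only the 6 nondiabetic mice in the fit, and so fewer mice to estimate the spread, 0 of 14096 genes were called by limma, and the adjusted p of the 9 genes lay between 0.0576 and 0.160. Each title prefix of the libraries belongs to 1 group, so a batch that followed it cannot be told apart from the group. The unnumbered mice have other prefixes than the numbered mice of their groups, so such a batch could also set them apart within these groups.

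**Figure D3:**
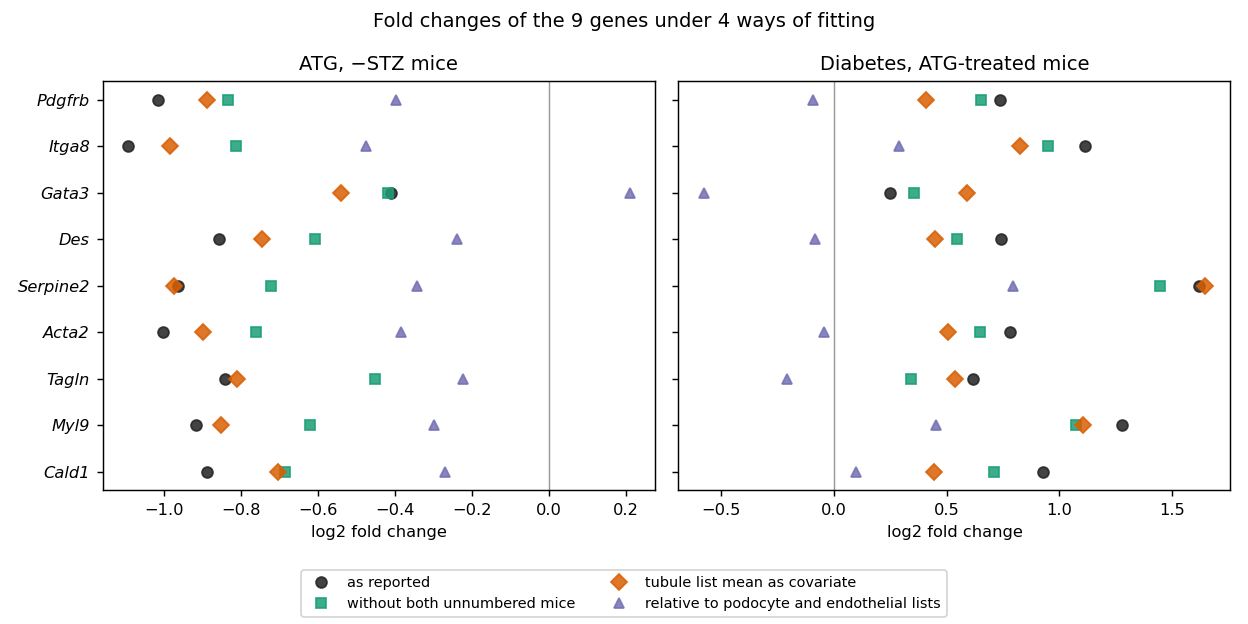
Log2 fold change of the 9 genes for ATG in nondiabetic (−STZ) mice (left) and for diabetes in ATG-treated mice (right), as reported, without both unnumbered mice, with the mean of 20 tubule genes as a covariate, and relative to the mean of the podocyte and endothelial lists. The medians lie nearer 0 relative to the glomerular lists (−0.30 and −0.044). There Serpine2 is 0.79 for diabetes (1.62 as reported) and Itga8 is −0.47 for ATG (−1.09 as reported).

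In diabetic mice, ATG against vehicle called none of the 9 genes and 0% of all 14096. At an unadjusted p under 0.05 it passed 636 genes, which is 4.51%, and none of the 9. The log2 fold changes of the 9 genes ran from −0.027 for Tagln to 0.25 for Itga8, with a median of 0.022 (−0.0051 for all genes). Their 95% intervals together spanned −0.53 to 0.60, so changes of up to about that size could have been missed. Of the 17 wider mesangial genes, Pdgfra had the lowest p (0.50 ± 0.17, adjusted p = 1.00) and Art3 the next (0.28 ± 0.13, adjusted p = 1.00). In the contractile apparatus, the serum response factor coactivators Mkl1 (−0.19 ± 0.10) and Mkl2 (0.12 ± 0.089) were lowest in p, and neither was called (adjusted p = 1.00 for both). No gene of any other list was called either.

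With vehicle, diabetes against no diabetes called 1 of the 9 genes, Serpine2, while 10.2% of all genes were called higher and 8.63% lower. The share of the 9 genes called was thus near the background. The median log2 fold change of the 9 genes was −0.18 and that of all genes 0.0075. The median of the 9 genes ran from −0.26 to −0.08 over the fits that left out 1 mouse. It was −0.34 with the tubule covariate and −0.39 relative to the podocyte and endothelial lists. The call of Serpine2 was lost when nondiabetic vehicle-treated mouse 1 or diabetic vehicle-treated mouse 1 was left out (adjusted p = 0.0615 and 0.0554). It was also lost with the tubule covariate (0.66 ± 0.23, adjusted p = 0.104) and relative to the podocyte and endothelial lists (0.43 ± 0.19, adjusted p = 0.278). Of the 20 tubule genes 12 were called lower in this comparison, with a median log2 fold change of −1.31. Without nondiabetic vehicle-treated mouse 1, Acta2 was called lower instead (−0.60, adjusted p = 0.0480). Among the wider mesangial genes Mcam, the adhesion molecule CD146, was called higher (0.68 ± 0.15, adjusted p = 0.0150), and Abcc9 (−0.52 ± 0.11, adjusted p = 0.0131) and Mgp, encoding matrix Gla protein (−0.65 ± 0.16, adjusted p = 0.0186), were called lower. Pdgfra, the receptor for platelet-derived growth factor A, fell by 1.00 ± 0.17 (log2, adjusted p = 0.00512). In the contractile apparatus Cnn2 (0.92 ± 0.18, adjusted p = 0.00950), Srf, the serum response factor itself (0.70 ± 0.14, adjusted p = 0.0101), and Tpm4 (0.69 ± 0.18, adjusted p = 0.0233) were called higher and Myocd lower (−0.77 ± 0.16, adjusted p = 0.0108). Ren1, the renin gene, was lower as well (−0.95 ± 0.28, adjusted p = 0.0387).

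Relatives of the 9 genes rose with diabetes, among them the widely expressed actins. With vehicle, 5 of 11 relatives of the 9 genes were called higher, including Actc1 (0.62 ± 0.11, adjusted p = 0.00665), Tagln2 (0.55 ± 0.13, adjusted p = 0.0201), Actb (0.62 ± 0.17, adjusted p = 0.0280) and Actg1 (0.46 ± 0.12, adjusted p = 0.0295). Per kilobase, the widely expressed Actg1 (14.30), Actb (13.89), Myl12a (12.94) and Myl12b (12.48) had mean log2 levels above that of Acta2 in nondiabetic vehicle-treated mice, and Tagln2 had 12.46. Over both treatments all 11 were called higher, where 28.2% of all genes were called higher and 23.3% lower. Of the wider mesangial genes 7 were called higher and 3 lower. Of the contractile apparatus 14 of 21 were then called higher, with the lowest p for Vcl (0.62 ± 0.059), Cnn2 (1.27 ± 0.13), Srf (0.75 ± 0.10) and Tpm4 (0.94 ± 0.13), and Csrp2, encoding a LIM protein of muscle, was lower (−0.40 ± 0.083, adjusted p = 0.00224). Of the 9 genes, 5 were called higher in the average of the effects with vehicle and with ATG: Itga8, Des, Serpine2, Myl9 and Cald1. With vehicle alone only Serpine2 of these was called, and the log2 fold change was −0.23 ± 0.16 for Itga8, −0.18 ± 0.15 for Des, 0.22 ± 0.17 for Myl9 and 0.039 ± 0.17 for Cald1, against 1.11, 0.74, 1.28 and 0.93 with ATG. The call of Des (0.28 ± 0.11, adjusted p = 0.0499) was lost in 11 of the 12 fits that left out 1 mouse, and those of the other 4 in none. With the tubule covariate only Serpine2 was called, where 777 of all genes were. It was also the only gene called relative to the podocyte and endothelial lists, where 9354 of all genes were called and 7 of the 9 genes turned negative (median −0.24), all but Serpine2 and Myl9.

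In ATG-treated mice, diabetes called 8 of the 9 genes higher, all but Gata3, where 25.9% of all genes were called higher and 20.8% lower. The same 8 genes were higher in every diabetic than in every nondiabetic mouse of the pair of groups, as were 30.5% of all genes. This comparison uses the nondiabetic ATG-treated mice described above as its controls, so it shares with the ATG comparison the low values of those mice. The log2 fold changes ran from 0.25 for Gata3 to 1.62 for Serpine2, with a median of 0.78 (0.053 for all genes). Tagln lost its call in 6 of the 12 fits that left out 1 mouse, and without the unnumbered ATG-treated mouse its log2 fold change was 0.34 in place of 0.62 and Acta2 lost its call as well (0.65, adjusted p = 0.0508). Without both unnumbered mice 6 of the 9 were called, as were 4314 of all genes. Of the wider mesangial genes 13 of 17 were called higher and none lower, with Mcam at 1.57 ± 0.15, Fhl2 at 1.12 ± 0.15, Art3 at 0.98 ± 0.13 and Ebf1 at 0.91 ± 0.15. Of the contractile apparatus 15 of 21 were higher, with the lowest p for Vcl (1.02 ± 0.083), and Csrp2 lower (−0.54 ± 0.12, adjusted p = 0.00409). Of the ligands and partners 8 of 12 were higher, with the lowest p for Lrp1 (1.12 ± 0.095) and Pdgfd (0.62 ± 0.088), and Pdgfc was lower (−0.52 ± 0.18, adjusted p = 0.0359). All 12 endothelial genes were called higher too, with a median log2 fold change of 1.05, as were 5 of the 12 with vehicle (median 0.40) and all 12 in the average. Of the 20 tubule genes 18 were called lower. With the tubule mean as a covariate all 9 genes stayed higher in sign, from 0.41 to 1.65 with a median of 0.54, and only Serpine2 was called (1.65 ± 0.28, adjusted p = 0.0286), in a fit that called 255 of all 14096 genes. Relative to the podocyte and endothelial lists Serpine2 (0.79 ± 0.19, adjusted p = 0.00366) and Myl9 (0.45 ± 0.18, adjusted p = 0.0378) were called, where 10632 of all genes were. On that scale 4 of the 9 genes were positive and 5 negative, with a median of −0.044, and the negative ones were Pdgfrb, Gata3, Des, Acta2 and Tagln.

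**Figure D4:**
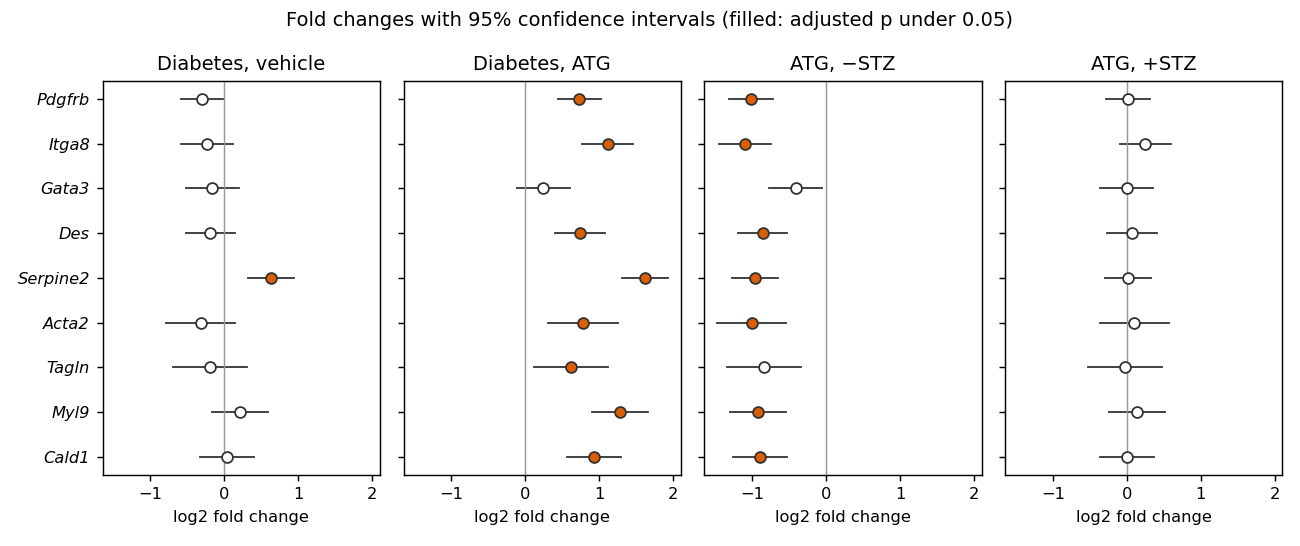
Log2 fold change of each of the 9 genes with its 95% confidence interval in 4 comparisons (diabetes in vehicle- and in ATG-treated mice, ATG in −STZ nondiabetic and in +STZ diabetic mice). Filled points passed an adjusted p under 0.05: 1, 8, 7 and 0 genes from left to right.

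The effect of ATG differed between diabetic and nondiabetic mice for 2 of the 9 genes by the interaction term, Pdgfrb (1.03 ± 0.19, adjusted p = 0.0455) and Itga8 (1.34 ± 0.22, adjusted p = 0.0443). Of all genes, 0.539% were called higher in this test. All 9 genes had a positive term, with a median of 0.98 (0.015 for all genes). Among the wider mesangial genes Gucy1b3 (1.10 ± 0.21), Art3 (0.99 ± 0.18) and Notch3 (1.07 ± 0.20) passed, each at an adjusted p of 0.0489. Vcl (0.81 ± 0.12, adjusted p = 0.0272) and Lrp1 (1.20 ± 0.14, adjusted p = 0.00683) passed as well. The 2 calls among the 9 genes lay close to the threshold: Pdgfrb lost its call in 10 and Itga8 in 9 of the 12 fits that left out 1 mouse, and both lost it without the unnumbered mice, without the mean-variance trend and relative to the podocyte and endothelial lists, where 0 of all genes were called. With the tubule covariate Itga8 alone was called (1.28 ± 0.22, adjusted p = 0.0466), as were 38 of all genes.

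Without group means subtracted, Pearson's r between pairs of the 9 genes was higher over the 6 nondiabetic mice than over the 6 diabetic mice. Over the 12 mice, Pearson's r of their 36 pairs ran from 0.302 to 0.958 with a median of 0.842. The pairs with Gata3 had a median of 0.414. After the group means were subtracted the median of the 36 pairs was 0.642, and that of the Gata3 pairs was −0.178. Over the 6 nondiabetic mice the 36 pairs had a median r of 0.934 and a lowest of 0.367, and over the 6 diabetic mice a median of 0.324 and a lowest of −0.799. The nondiabetic mice pool the vehicle and ATG groups, which lay apart for each of the 9 genes, so their r values include that shift. Values with group means subtracted were not taken for the nondiabetic and diabetic mice separately, and the difference was not tested. In the diabetic mice Serpine2 ran most against Gata3 (r = −0.799), Pdgfrb (r = −0.65) and Tagln (r = −0.50). Over the 12 mice with group means subtracted, its r was −0.492 with Gata3, 0.258 with Pdgfrb and 0.69 with Tagln. These mice share groups and the balance of cell types, and the values are a description. Pearson's r with the mean of the tubule list over the same mice ran from −0.128 for Gata3 to −0.854 for Serpine2.

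**Figure D5:**
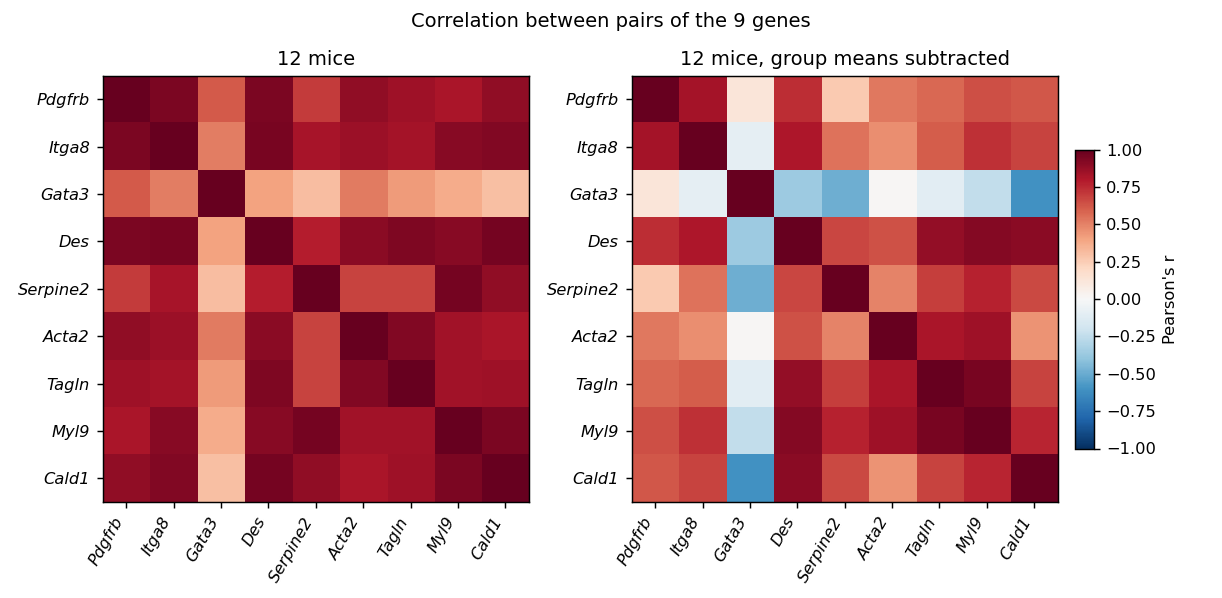
Pearson's r between each pair of the 9 genes over 12 mice (left) and over the same mice after subtracting each group's mean (right), colour from −1 to 1. Gata3 is the palest row on the left (median 0.414) and turns mostly negative on the right (median −0.178).

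The genes most like each of the 9, by Pearson's r over the same 12 mice, are given as a description. Of these 27 entries, in which Afap1l2 occurs for both Pdgfrb and Des, 3 (Mcam, Agtr1a and Cnn1) were on lists used here. Cnn1 was on both the contractile apparatus and the arteriolar list. Serpine2 was closest to Mcam (r = 0.993), followed by Sdc3 and Ppp1r18. Itga8 was closest to Nr2f1 (r = 0.984), followed by Agtr1a, the angiotensin II receptor through which mesangial cells contract (r = 0.979), and Cpne2. For Pdgfrb the closest were Mrvi1 (r = 0.979), Sox17, a transcription factor of endothelial cells, and Afap1l2, and for Des they were Afap1l2 (r = 0.978), Apba1 and Kcnmb1, the smooth muscle subunit of a potassium channel. For Acta2 they were Ldb3, a Z-disc protein of muscle (r = 0.976), Cnn1, encoding calponin (r = 0.966), and Aoc3. For Tagln they were Ptgis, encoding prostacyclin synthase (r = 0.952), Mustn1 and Dmpk. Myl9 was closest to Rftn1 (r = 0.987), Wtip and Iglon5, and Cald1 to Ank (r = 0.986), Ccdc80 and Dennd2a. Gata3 had no gene as close, its nearest being Xk (r = 0.833), Wdr4 and Lmo7.

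After the group means were subtracted, the closest gene was Agtr1a for Itga8 (r = 0.973), Cnn1 for Acta2 (r = 0.962), and Tgfb1 for both Tagln (r = 0.976) and Myl9 (r = 0.980), with Crip1 second for these last genes. It was S1pr3 for Pdgfrb (r = 0.954), Rnf166 for Des (r = 0.974), Hrct1 for Serpine2 (r = 0.972), Mxra8 for Cald1 (r = 0.991) and Dsn1 for Gata3 (r = 0.961). Each is the highest value in a search over all genes outside the 9, and is given as a description.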

How the data were processed

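Samples were grouped by the condition in their labels, 3 mice per group. The authors deposited 1 table per mouse with log2 values per gene, taken here as reads scaled by 1 factor per library and not divided by gene length (on the linear scale 83.4 to 84.1% of values under 2000 were whole multiples of a step within 0.02 reads and the rest were not, and the sums were 29.7 to 30.2 M). The genome build mm10 and limma are named in the submitters' processing notes; the aligner and the counting are not given in the sources used here. The deposited log2 values were used as they stand. All 12 mice entered 1 limma fit of the 4 groups (version 3.58.1, R 4.3.3) with a mean-variance trend, and p-values were Benjamini-Hochberg adjusted over all 14096 genes, with calls at an adjusted p under 0.05. The script was tested on simulated data. Nothing in the labels says how litters or batches were shared, and p-values measure the spread between these mice.

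Members and lists were chosen with earlier results of these data known. All 9 members were named. Of 5 other lists (wider mesangial, contractile apparatus, ligands and partners, relatives, arteriolar), the rule named up to 4 genes per list and direction by lowest p among those called, or the 2 lowest where none was called; relatives were named with levels. A selection of these is printed, and 1 result is not reported here. The 3 genes most like each member were ranked by Pearson's r (Python 3.11.15), with and without group means; of the second ranking mainly the first is printed. Genes of the lists that were not listed in the files are Kcnj8, Vtn, F2, Tagln3, Cd3e, Cd79a, Lum and Dpt. Lists of parietal, leukocyte and fibroblast genes were measured too: of 6, 10 and 5 listed genes, none was called for ATG in nondiabetic mice, and 0, 3 and 0 were called higher and 0, 0 and 1 lower for diabetes with vehicle. The fibroblast gene called lower was Pdgfra, which is also on the wider mesangial list. Other genes on more than 1 list were Myh11 and Cnn1 (contractile apparatus and arteriolar), Actg2 (contractile apparatus and relatives) and Npnt (partners and podocyte). Alternatives were another scaling, limma-voom on estimated reads, filters at 10 and 100, a fit without the trend, a replicate block, leaving out mice, a tubule covariate and a glomerular reference. Whole-gene exon overlaps came from GENCODE M21.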

Additional observations from a re-analysis of the deposited data

Results flagged for a closer look

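For 2 genes the effect of ATG differed between diabetic and nondiabetic mice by the interaction term of the limma fit. Pdgfrb had a term of 1.03 ± 0.19 (log2, SE, adjusted p = 0.0455) and moved by −1.01 in nondiabetic and by 0.017 in diabetic mice. Itga8 had a term of 1.34 ± 0.22 (adjusted p = 0.0443) and moved by −1.09 and by 0.25. The other 7 genes had positive terms that did not pass. Over the 12 fits that left out 1 mouse, Pdgfrb lost its call in 10 and Itga8 in 9. Neither was called without the unnumbered mice, without the mean-variance trend or relative to the podocyte and endothelial lists, and Itga8 alone was called with the tubule covariate.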

How the results depend on the processing

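Of 972 values of single genes under an alternative setting, 822 kept their direction and their side of the threshold, 114 lost a call, 13 gained one and 23 changed sign. The reported numbers of the 9 genes called were 1 for diabetes with vehicle, 8 for diabetes with ATG, 5 for diabetes averaged over treatments, 0 for ATG under diabetes, 7 for ATG without diabetes and 2 in the interaction test. With the tubule covariate they were 0, 1, 1, 0, 3 and 1, and relative to the podocyte and endothelial lists 0, 2, 1, 0, 1 and 0. Over all 14096 genes these fits called 1046, 255, 777, 0, 95 and 38 with the covariate and 145, 10632, 9354, 0, 5969 and 0 relative to the lists. Without both unnumbered mice ATG in nondiabetic mice and the interaction each called 0, and with only the groups compared in the fit ATG in nondiabetic mice called 0. Without the mean-variance trend the interaction called 0. An adjusted p under 0.1 gave 5 for the interaction, and an unadjusted p under 0.05 gave 8 for the interaction and 2 for diabetes with vehicle. Leaving out 1 mouse gave 0 to 1, 6 to 8, 4 to 6, 0, 3 to 8 and 0 to 6 in the same order. The count for ATG in nondiabetic mice was 3 without vehicle-treated mouse 2 or the unnumbered vehicle-treated mouse, and that of the interaction was 6 without nondiabetic ATG-treated mouse 2. Other scaling, voom and filters on low values moved no count by over 1.5 times. The cause of these shifts was not tested.

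With the replicate block, diabetes with vehicle called 0, diabetes averaged over treatments 2 and the interaction 0. The numbers did not pair the mice, since 5 of 13 same-numbered pairs correlated over 0.1 (r from −0.59 to 0.339). The nondiabetic mice without a number formed a block of their own.

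Among these 972 values, which leave out ATG in diabetic mice, signs changed for the following log2 fold changes. For diabetes with vehicle, Cald1 was −0.10 with the replicate block, −0.34 with the tubule covariate, −0.17 relative to the glomerular lists and −0.022 to 0.11 over the fits without 1 mouse, and Gata3 was 0.11 with the covariate. For diabetes with ATG relative to the glomerular lists, Pdgfrb was −0.091, Gata3 −0.58, Des −0.084, Acta2 −0.044 and Tagln −0.21. For diabetes averaged over treatments on that scale, Pdgfrb was −0.30, Itga8 −0.077, Gata3 −0.47, Des −0.24, Acta2 −0.29, Tagln −0.31 and Cald1 −0.036. With the covariate Pdgfrb was −0.072 and Acta2 −0.012, and Gata3 ran from −0.037 to 0.13 without 1 mouse. Relative to the glomerular lists Gata3 was 0.21 for ATG without diabetes and −0.21 in the interaction. For ATG in diabetic mice, the median of the 9 genes stayed between 0.0070 and 0.087 under the alternatives, and the lowest of the 9, reported as −0.027, ran from −0.11 without diabetic ATG-treated mouse 2 to −0.0078 under median-ratio scaling, summaries added after seeing the data.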
